A study of Mus musculus with 3 samples.

Results

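The contractile apparatus of aortic smooth muscle cells (SMCs) was followed across 35 genes of the 32285 counted. The genes were chosen by symbol and role: smooth muscle actins and tropomyosins, myosin chains, the kinases and phosphatase subunits that act on myosin, actin-binding regulators, dense body and adhesion plaque proteins, intermediate filaments, and 2 transcriptional regulators of the set. All 35 were detected in SMCs of every library. Cells were dissociated from ascending aortas of male C57BL/6J mice at P45, with 3 WT mice pooled in the first library, 3 Fbn1mgR/mgR mice (mgR) in the second and 4 Fbn1mgR/mgR mice given 0.6 g/L losartan in the drinking water from P16 (mgR-LOS) in the third. Fbn1mgR/mgR mice make too little fibrillin-1, a protein of the elastic fibers between SMC layers, and serve as a model of Marfan syndrome with dissecting aneurysm, and losartan blocks the angiotensin II type I receptor. Whether the untreated mutant mice were given vehicle is not stated in the labels. The paper's methods say that mutant mice were selected for ex vivo work on aortic diameters measured at the end of treatment. The labels do not say whether this held for these pools. With 1 pool per group there were no replicates and no test between groups was possible, so all intervals below are exact 95% intervals that cover counting error only and not the spread between mice.

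SMCs were taken as barcodes in which *Acta2*, *Myh11*, *Tagln*, *Cnn1*, *Myl9* and *Tpm2* together made up at least 150 of every 10000 UMIs (unique molecular identifiers, 1 per captured RNA molecule) and *Dcn*, a fibroblast gene, made up less than 10. The gate required no single gene of these 6, but *Acta2* alone could pass it in many cells. Its median was 213 per 10000 in WT SMCs and 196 in mgR SMCs. The summed level of the 6 genes is fixed from below by the gate. *Dcn* alone could leave a barcode out: its limit left out 155, 271 and 525 barcodes of WT, mgR and mgR-LOS that passed the 6 genes. The paper describes SMC3, a cluster it found only in Fbn1mgR/mgR aortas, by raised *Dcn* and *Lum*. How many of the barcodes left out were such cells was not tested. The gate held 3561 of 5361 WT barcodes (66.4%, 65.1% to 67.7%), 3048 of 8076 mgR barcodes (37.7%, 36.7% to 38.8%) and 7832 of 12721 mgR-LOS barcodes (61.6%, 60.7% to 62.4%). Few barcodes lay at the limit, with 11, 57 and 60 barcodes from 150 to 180 and 6, 52 and 43 from 120 to 150 in WT, mgR and mgR-LOS. In mgR nearly as many lay just below the limit as just above it, so the gate cuts through the low end of the level there. SMC genes outside the set served as a check of the label. A gate built on 8 of them, among them *Itga8* and *Kcnmb1*, asked for UMIs of at least 3 and kept the *Dcn* limit. It held 3505, 2983 and 7589 of the same barcodes, or 98.4%, 97.9% and 96.9%. In all it held 3530, 3148 and 7686 barcodes, so some lay below the limit on the 6 genes, and these were most numerous in mgR. They are outside the levels and spreads given for SMCs. The SMCs carried 50887627, 47144278 and 70578283 UMIs in WT, mgR and mgR-LOS, with a median of 14426, 15302 and 8551 UMIs per cell. *Fbn1* was at 250.5, 77.6 and 66.7 UMIs per 1000000 UMIs (CPM) in them, lower in both mutant libraries. This checks the labels of genotype and not that of losartan. Markers of other cell types were low but uneven: 6 leukocyte genes summed to 2.67, 42.1 and 57.0 CPM, 6 fibroblast genes to 81.1, 120.4 and 183.9 CPM and 6 endothelial genes to 22.7, 5.49 and 14.7 CPM in WT, mgR and mgR-LOS, and their part in the results was not tested. Barcodes shared between libraries were few, at 2, 5 and 5 of the SMC barcodes.

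In smooth muscle, myosin II pulls on actin filaments that are anchored in dense bodies and in adhesion plaques at the membrane. Contraction starts when myosin light chain kinase phosphorylates the regulatory light chain and ends when a myosin phosphatase removes the phosphate. Many of these genes are driven by serum response factor together with its coactivator myocardin, which act through the CArG box, and in arterial SMCs their level is the usual measure of a contractile as against a modulated cell state.

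Because the CArG box links these genes, it was searched for in RefSeq promoter windows of build GRCm38.p6, each covering 250 bases before a start site and 50 bases after it. Of the 35 genes, 30 had a window, and *Actg2*, *Myh11*, *Tagln*, *Nexn* and *Myocd* had none. The box is 10 bases long, with a pair of C, 6 bases that are each A or T and a pair of G, and it reads the same on both strands. It was present in 5 of 30 genes, compared with 1.63% of 32851 windows and 1.81% of 27025 genes. The boxes began 161 bases before the start site in *Myl9*, 50 in *Myl6*, 56 in *Cnn2*, 227 in *Vcl*, and 82 and 62 in *Srf*. *Acta2* had no exact box. When 1 of the 6 middle bases was allowed to be G or C, *Acta2* had boxes at 84 and 34 bases before its start site, *Myl9* another at 99 and *Synm* one at 239, which made 3 of 30 genes (10%), compared with 9.695% of all genes. A match is a description of the letters and not of binding. The 250 bases before the start site are shown for the most abundant gene of the set, *Acta2*, for a myosin light chain, a calponin and an adhesion plaque gene with an exact box, and for *Srf*, which has a pair of them. The sequences are read 5′ to 3′ on the strand of the gene, and capitals mark exact boxes and those with 1 departure.
Acta2 promoter, chr19:34255374-34255623, minus strand: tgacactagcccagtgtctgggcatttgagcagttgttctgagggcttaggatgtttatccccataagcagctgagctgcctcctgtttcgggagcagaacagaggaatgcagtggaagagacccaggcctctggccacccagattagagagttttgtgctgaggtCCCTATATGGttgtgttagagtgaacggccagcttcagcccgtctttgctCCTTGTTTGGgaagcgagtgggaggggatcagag
Myl9 promoter, chr2:156775214-156775463, plus strand: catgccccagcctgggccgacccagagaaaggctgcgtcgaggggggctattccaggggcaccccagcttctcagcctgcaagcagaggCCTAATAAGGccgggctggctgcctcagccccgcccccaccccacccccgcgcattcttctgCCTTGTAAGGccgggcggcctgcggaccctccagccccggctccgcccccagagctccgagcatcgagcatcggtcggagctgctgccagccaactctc
Cnn2 promoter, chr10:79988350-79988599, plus strand: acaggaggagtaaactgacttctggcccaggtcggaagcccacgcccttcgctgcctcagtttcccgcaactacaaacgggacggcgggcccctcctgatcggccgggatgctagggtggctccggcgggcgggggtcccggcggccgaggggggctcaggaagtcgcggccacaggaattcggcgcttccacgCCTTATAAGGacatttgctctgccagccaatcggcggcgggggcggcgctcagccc
Vcl promoter, chr14:20929148-20929397, plus strand: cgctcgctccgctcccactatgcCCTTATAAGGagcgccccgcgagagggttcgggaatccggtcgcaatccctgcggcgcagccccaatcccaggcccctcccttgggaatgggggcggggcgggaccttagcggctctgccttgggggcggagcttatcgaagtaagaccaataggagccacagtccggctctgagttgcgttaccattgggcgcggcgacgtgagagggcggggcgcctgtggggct
Srf promoter, chr17:46556163-46556412, minus strand: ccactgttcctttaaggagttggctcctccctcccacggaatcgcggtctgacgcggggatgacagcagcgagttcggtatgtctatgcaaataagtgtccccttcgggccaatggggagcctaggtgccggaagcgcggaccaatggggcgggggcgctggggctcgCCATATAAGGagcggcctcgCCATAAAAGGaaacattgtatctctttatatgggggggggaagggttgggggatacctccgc

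Levels in SMCs differed by about 1000-fold between the highest and the lowest gene and far less between libraries. The 35 genes together took 8.82%, 8.37% and 8.39% of all UMIs of the SMCs in WT, mgR and mgR-LOS. A molecule was counted once from its 3′ end, so levels were not divided by gene length. *Acta2* and *Tagln* led in each library, followed by *Myl6*, *Vim* and *Tpm2*, and *Srf* was the lowest. The median ratio of mgR over WT was -0.07 on the log2 scale for the 35 genes and -0.02 for all 5486 genes with at least 20 CPM in either library. In mgR-LOS over mgR both medians were 0.01, and in mgR-LOS over WT they were -0.02 and 0.01. For the 6 gate genes the median of mgR over WT was -0.22. The median of the set depended on the cells kept. Among cells with at most 5% mitochondrial UMIs, mgR over WT was -0.20 for the set and -0.04 for all genes. In the same cells mgR-LOS over mgR was 0.15 and 0.02. With the gate on SMC genes outside the set, mgR over WT was -0.11 and -0.02. In the band of gate genes described below, from 500 to under 700, it was 0.01 for the set and -0.003 for all genes. Genes of the set lay on both sides of 1, as the plots of levels and ratios show.

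**Figure D1:**
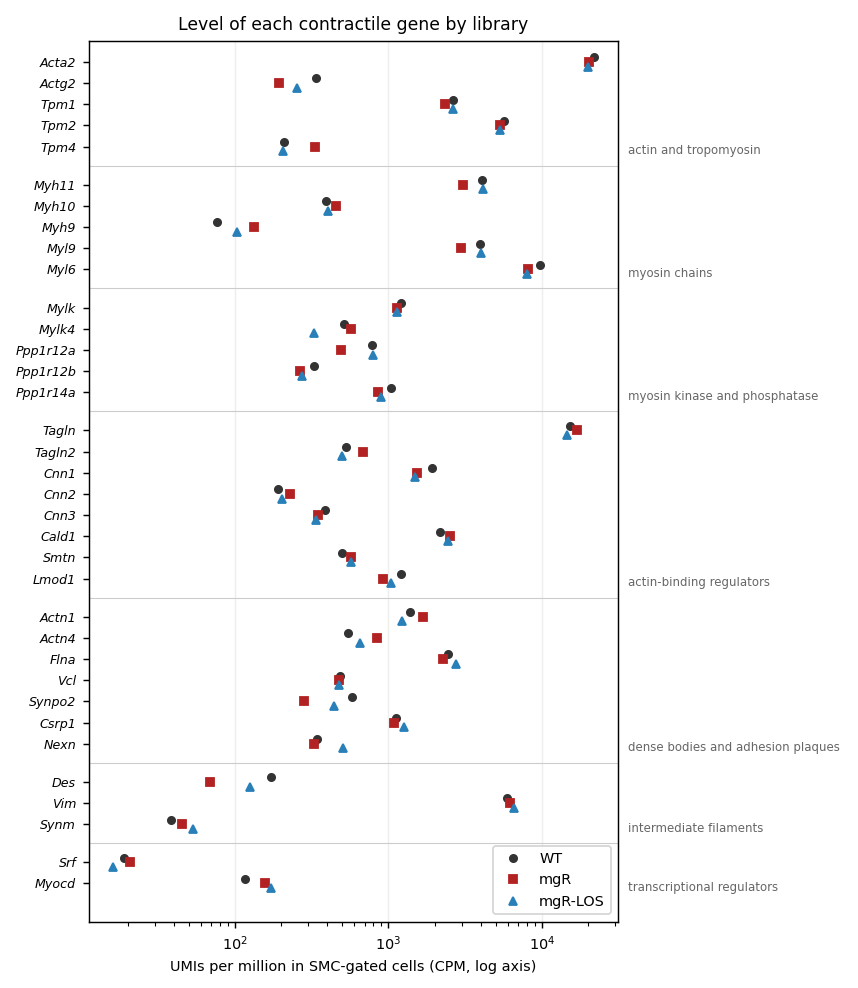
Level of each of the 35 contractile genes in SMCs, in CPM on a log axis, grouped by role. Circles are WT, squares mgR and triangles mgR-LOS, with 1 pooled library each. *Acta2* lies at 21858, 20356.5 and 19888 CPM, whereas *Des* lies at 172, 69.2 and 124 CPM.

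A gene was counted as different when the ratio was at least 1.5-fold with an interval beyond 1 and at least 20 CPM in either library. In mgR over WT 3 of 35 genes were higher (*Tpm4*, *Myh9* and *Actn4*), against 5.01% of all genes tested, and 4 of 35 were lower (*Actg2*, *Ppp1r12a*, *Synpo2* and *Des*), against 3.59%. In mgR-LOS over mgR 4 of 35 were higher (*Ppp1r12a*, *Synpo2*, *Nexn* and *Des*), against 3.91%, and 2 were lower (*Tpm4* and *Mylk4*), against 3.6%. In mgR-LOS over WT, where *Srf* was under 20 CPM, none of 34 was higher, against 4.57%, and 1 was lower (*Mylk4*), against 3.03%. The mgR library enters the first and the second comparison, so their opposite directions are not independent. At these depths nearly every ratio had an interval that left 1: above 1 in 14 and below 1 in 20 of 35 genes for mgR over WT, against 32.4% and 37.6% of all genes. For mgR-LOS over mgR these counts were 17 and 15 of 35, against 41.3% and 37.2%, and for mgR-LOS over WT 16 and 17 of 34, against 39.8% and 37.4%. The typical size of a difference, taken without its sign, had a median of 0.26 on the log2 scale in mgR over WT for the 35 genes and 0.14 for all genes tested. In mgR-LOS over mgR these medians were 0.21 and 0.18, and in mgR-LOS over WT they were both 0.17.

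**Figure D2:**
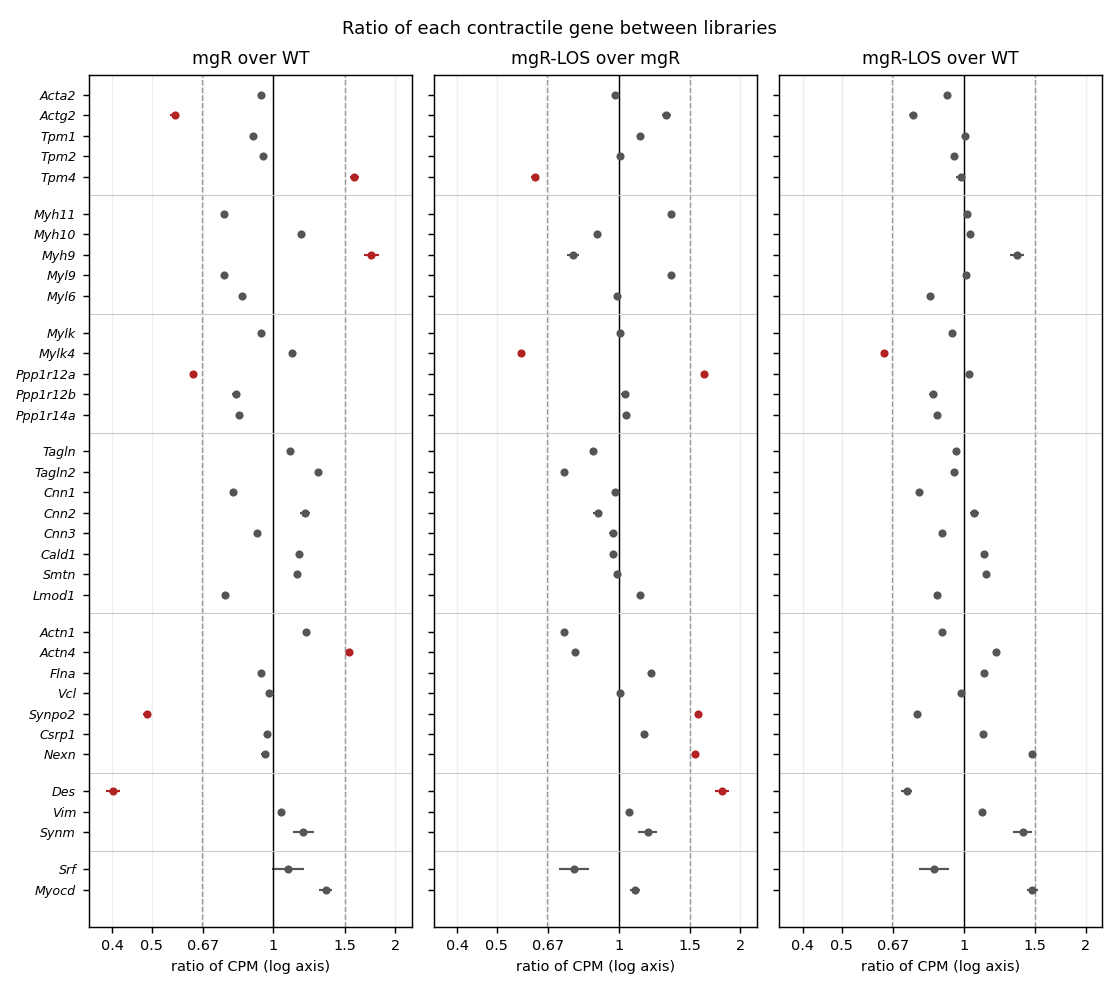
Ratio of CPM in SMCs for each gene on a log axis, with exact 95% counting intervals as bars, for mgR over WT, mgR-LOS over mgR and mgR-LOS over WT. Red points pass 1.5-fold in either direction (dashed lines), with 7 genes in the first panel, 6 in the second and 1 in the third.

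The thin filament is built from actin, with tropomyosin along its groove. *Acta2*, smooth muscle alpha-actin (chromosome 19 from 34241090 to 34255590, minus strand, GRCm38), was at 21858 CPM in WT, 20356.5 in mgR and 19888 in mgR-LOS, which put mgR at 0.931 of WT (0.929 to 0.934). *Actg2*, smooth muscle gamma-actin of visceral muscle, was at 339, 194 and 254 CPM, with mgR at 0.571 of WT (0.557 to 0.586) and mgR-LOS at 1.31 times mgR (1.28 to 1.345). The minor actin alone passed 1.5-fold of the pair, and it made up 1.53%, 0.943% and 1.26% of the UMIs of both actins. Among tropomyosins, *Tpm2* was at 5656, 5323 and 5352 CPM and *Tpm1* at 2633, 2349.9 and 2654 CPM. *Tpm4*, which codes for a tropomyosin of the nonmuscle cytoskeleton, was at 209.5 CPM in WT, 332 in mgR and 206 in mgR-LOS. The level in mgR was 1.58 times WT (1.545 to 1.62), the level in mgR-LOS was 0.620 of mgR (0.607 to 0.635), and the interval of mgR-LOS over WT held 1 (0.982, 0.958 to 1.01). *Tpm4* made up 2.47%, 4.15% and 2.51% of the UMIs of *Tpm1*, *Tpm2* and *Tpm4*, without *Tpm3*, which was at 63.4, 82.9 and 83.3 CPM.

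Of the 5 myosin chains 1 passed 1.5-fold, *Myh9*, which was higher in mgR than in WT. *Myh11*, the smooth muscle heavy chain, was at 4070.4 CPM in WT, 3077 in mgR and 4134 in mgR-LOS, which was 0.756 of WT in mgR (0.751 to 0.761). *Myl9*, the regulatory light chain, was at 3967, 2991 and 4019 CPM, with nearly the same ratios, 0.754 in mgR over WT and 1.34 in mgR-LOS over mgR for both genes. Neither passed 1.5-fold, and in mgR-LOS both were within 2% of WT, at 1.02 (1.01 to 1.02) for *Myh11* and 1.01 (1.01 to 1.02) for *Myl9*. Among cells with at most 5% mitochondrial UMIs both had larger ratios: *Myh11* was past 1.5-fold at 0.607 in mgR over WT (0.598 to 0.616), and in mgR-LOS over mgR *Myh11* was at 1.57 (1.55 to 1.59) and *Myl9* at 1.55 (1.53 to 1.57). *Myl6*, the essential light chain shared with nonmuscle myosin, was at 9699 CPM in WT and lower in both mutant libraries, at 8094 and 8009.7 CPM. Of the nonmuscle heavy chains, *Myh9* was at 75.8, 132 and 102 CPM, with mgR at 1.75 times WT (1.68 to 1.82), and *Myh10* was at 392, 459 and 407 CPM. As shares of all 3 heavy chains, *Myh11* took 89.7% (89.6% to 89.8%) in WT, 83.9% (83.7% to 84.1%) in mgR and 89.0% (88.9% to 89.1%) in mgR-LOS. *Myh10* took 8.63%, 12.5% and 8.76%, and *Myh9* took 1.67%, 3.61% and 2.21%.

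Of the enzymes that set light chain phosphorylation, *Ppp1r12a* stood apart. This targeting subunit of myosin phosphatase was at 777 CPM in WT, 492 in mgR and 799 in mgR-LOS, with ratios of 0.633 (0.623 to 0.644) for mgR over WT, 1.62 (1.60 to 1.65) for mgR-LOS over mgR and 1.03 (1.01 to 1.04) for mgR-LOS over WT. Its relative *Ppp1r12b* was at 327, 264 and 274 CPM, and the phosphatase inhibitor gene *Ppp1r14a* was at 1039, 854 and 891 CPM. The kinase *Mylk* was at 1217, 1134 and 1140.5 CPM (0.932 in mgR over WT). *Mylk4*, a related kinase, was at 513 CPM in WT, 569.9 in mgR and 326 in mgR-LOS. It was the only gene of the set that passed 1.5-fold against both other libraries in mgR-LOS, at 0.573 of mgR (0.563 to 0.583) and 0.637 of WT (0.626 to 0.648), and it took 29.6%, 33.4% and 22.3% of the UMIs of *Mylk* and *Mylk4*. Median depth was also lowest in that library, at 8551 UMIs per cell, and the file was made with a later software version, and their part was not tested.

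None of the 8 actin-binding regulators passed 1.5-fold in any comparison. *Tagln*, transgelin, was at 15322, 16869 and 14621 CPM, so that it was higher in mgR by 1.10 times (1.10 to 1.10) while *Acta2* was lower. *Cnn1*, the smooth muscle calponin, was at 1932 CPM in WT and at 1532 and 1499 CPM in mgR and mgR-LOS. It was lower in both mutant libraries by a similar ratio, 0.793 (0.785 to 0.801) and 0.776 (0.770 to 0.783), unlike *Myh11* and *Myl9*. Among cells with at most 5% mitochondrial UMIs *Cnn1* was past 1.5-fold in mgR over WT, at 0.649 (0.6355 to 0.663). *Lmod1*, leiomodin, which nucleates actin filaments, was at 1216, 924 and 1045 CPM. *Cald1* (caldesmon) was at 2164, 2506 and 2434 CPM, and *Smtn* (smoothelin) at 499.6, 571 and 567 CPM. Of the less muscle-restricted paralogs, *Tagln2* was at 530.0 CPM in WT, 684 in mgR and 502 in mgR-LOS, *Cnn2* at 190.0, 227 and 202 CPM and *Cnn3* at 384, 350.4 and 339 CPM. *Tagln2* took 3.34%, 3.90% and 3.32% of the UMIs of *Tagln* and *Tagln2*, and *Cnn1* took 77.1%, 72.6% and 73.5% of calponin UMIs.

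Among dense body and plaque genes, *Synpo2* had the lowest ratio of mgR over WT. *Synpo2*, whose product binds actinin and filamin at Z-discs and dense bodies, was at 577 CPM in WT, 281 in mgR and 442 in mgR-LOS. Its level in mgR was 0.486 of WT (0.476 to 0.496), and in mgR-LOS it was 1.57 times mgR (1.54 to 1.605) and 0.765 of WT (0.753 to 0.777), so it lay between the other libraries. The actinins cross-link actin: *Actn4* was at 546 CPM in WT, 841 in mgR and 656 in mgR-LOS (1.54 times in mgR over WT, 1.52 to 1.56), and *Actn1* was at 1387, 1671 and 1226 CPM. *Actn4* took 28.3%, 33.5% and 34.9% of the UMIs of *Actn1* and *Actn4*, so its share stayed higher in mgR-LOS although its level there was nearer to WT. *Nexn*, nexilin, an actin-binding protein of adhesion sites, was the gene in which WT and mgR lay within 5% of each other and mgR-LOS stood apart, at 342, 326 and 504 CPM and 1.55 times mgR (1.52 to 1.58). *Flna* (filamin A) was at 2447.5, 2278.5 and 2745 CPM, *Csrp1* at 1128, 1090.1 and 1259 CPM, and *Vcl* (vinculin) at 487, 475 and 479 CPM, within 3% of each other.

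*Des* codes for desmin, the muscle intermediate filament, and had the largest fold difference of the set between mgR and WT, 2.49-fold lower in mgR. WT had 172 CPM of it (168 to 176), mgR 69.2 (66.8 to 71.6) and mgR-LOS 124 (122 to 127). The level in mgR was 0.402 of WT (0.386 to 0.4185), in mgR-LOS it was 1.80 times mgR (1.73 to 1.87), and mgR-LOS was 0.723 of WT (0.702 to 0.745). *Vim*, vimentin, the filament shared by mesenchymal cells, was at 5926, 6183 and 6572 CPM, and *Synm*, synemin, at 38.0, 45.1 and 53.2 CPM. Neither transcriptional regulator passed 1.5-fold in any comparison. *Myocd*, myocardin, was at 117, 157 and 172 CPM, and *Srf* was at 19.0 CPM in WT, 20.6 in mgR and from 15.1 to 17.0 in mgR-LOS by its interval, with a ratio of mgR over WT whose interval held 1 (1.09, 0.993 to 1.19).

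The level of the 6 gate genes per cell spread more widely in mgR. The median cell had 521, 501 and 491 of these UMIs per 10000 in WT, mgR and mgR-LOS. The 10th percentile was 374 in WT, 269 in mgR and 320 in mgR-LOS, and the 90th was 679.8, 714 and 682. Cells from 150 to under 300 made up 2.81% of WT SMCs (2.29% to 3.41%), 13.2% of mgR SMCs (12.0% to 14.5%) and 7.74% of mgR-LOS SMCs (7.16% to 8.35%), so a low-contractile tail was largest in mgR, as the plot of the level per cell shows. In this tail *Vcam1*, an adhesion gene of modulated SMCs, was at 43.6, 675.5 and 239 CPM and *Spp1*, osteopontin, at 3.96, 92.1 and 5.75 CPM. The leukocyte genes summed to 3.17, 129 and 384 CPM and the fibroblast genes to 247, 371 and 394 CPM in the same cells, and the part of cells with RNA of another type in the tail was not tested.

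**Figure D3:**
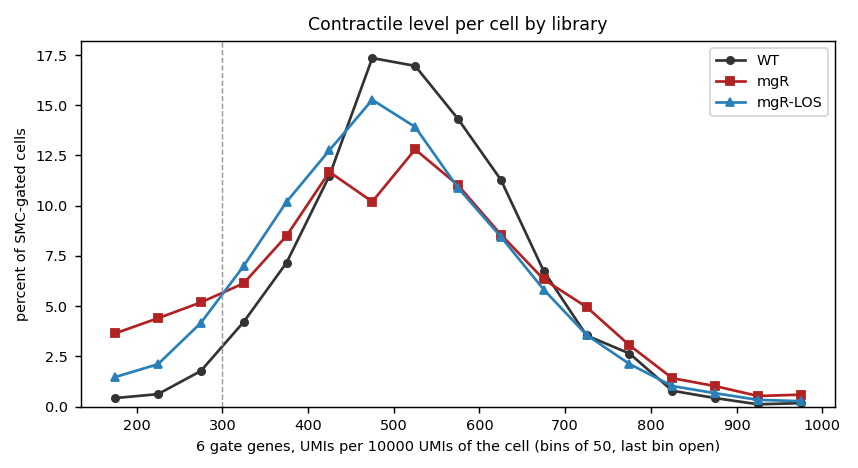
Percent of SMCs of each library by the summed level of the 6 gate genes per 10000 UMIs of the cell, in bins of 50 from 150 upward. To the left of the dashed line at 300, mgR (squares) lies above mgR-LOS (triangles) and WT (circles), with 13.2%, 7.74% and 2.81% of cells there.

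Of the 7 genes past 1.5-fold between mgR and WT, 4 were also past it in cells well above this tail, and the other 3 had smaller ratios there in the same direction. Among cells with 500 to under 700 of the gate UMIs per 10000, a band chosen after seeing the data that held 1756, 1180 and 3061 cells, *Des* was at 189 CPM in WT, 86.0 in mgR and 157 in mgR-LOS. *Synpo2* was at 633.5, 336 and 491 CPM, *Ppp1r12a* at 816, 549 and 849 CPM and *Actg2* at 375, 224 and 306 CPM in this band. The genes higher in mgR had *Tpm4* at 202, 292 and 203.5 CPM, *Myh9* at 73.0, 101 and 80.9 CPM and *Actn4* at 565.5, 885 and 691 CPM. The ratio of mgR over WT in the band was 1.44 for *Tpm4*, 1.39 for *Myh9* and 0.673 for *Ppp1r12a*, which did not pass 1.5-fold, and it was past the limit for *Des* (0.455), *Synpo2* (0.530), *Actg2* (0.597) and *Actn4* (1.57). Along the level of the gate genes within WT, *Tpm4* went from 283 CPM in the band of 150 to 300 to 195 CPM above 700, *Myh9* from 121 to 61.7 CPM and *Myh10* from 422 to 297 CPM, whereas *Des* went from 38.0 to 389 CPM and *Actg2* from 165 to 565 CPM. The same order of bands held for these 5 genes between the lowest and the highest band in mgR and in mgR-LOS.

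Spread between cells was measured after each cell had been thinned to 5000 UMIs, as the coefficient of variation (CV) left after the variance of counting had been taken off. Cells with fewer UMIs were left out, 110 in WT, 81 in mgR and 965 in mgR-LOS. The CV was larger in mgR than in WT in 31 of the 35 genes, compared with 55.9% of 4935 genes with a mean of at least 0.1 UMIs. It was larger in mgR-LOS than in mgR in 9 of 35, compared with 49.3% of genes, and larger in mgR-LOS than in WT in 33 of 35, compared with 60.3%. With the same minimum mean asked of the set, these counts were 30, 9 and 33 of 34. The genes behind the shares were not matched to the set for level. The median CV of the set was 0.364 in WT, 0.440 in mgR and 0.383 in mgR-LOS, whereas over all genes it was 0.335 in WT and 0.358 in mgR. Over all genes compared between mgR-LOS and mgR it was 0.389 in mgR-LOS and 0.363 in mgR. In mgR-LOS the median of the set was thus not above that of all genes. The exceptions in mgR against WT were *Mylk4*, *Cnn2*, *Actn4* and *Myocd*, whose CVs lay within 0.05 of each other. With the exact mean over all draws of UMIs, an alternative chosen after seeing the data, the count was again 31, with *Cald1* and *Synm* in place of *Mylk4* and *Myocd* among the exceptions. In the narrow band of 500 to under 700 gate UMIs the count was 21 of 35 for mgR against WT and 23 of 35 for mgR-LOS against mgR. The share of all genes was not computed in the band, so whether the set stands out there is not known. The band limits the spread of its 6 gate genes, and of genes that move with them, by construction.

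In this draw *Myl6* was the most even gene of the set from cell to cell in each library, and *Actg2* and *Des* were the least even. *Myl6* had a CV at 0.192, 0.262 and 0.238 in WT, mgR and mgR-LOS. *Acta2* was at 0.287, 0.412 and 0.338 and *Myl9* at 0.283, 0.417 and 0.330. *Acta2* in the cell at the 10th percentile was at 139 per 10000 in WT, 93.2 in mgR and 113 in mgR-LOS, while its 90th percentile was 301, 313 and 292, so that the lower end differed more than the upper end. *Tagln* changed less, at 0.274, 0.312 and 0.302. *Synpo2*, lower in mgR on average, also had a larger CV there, at 0.456, 0.638 and 0.503. *Actg2* had a CV of 1.17, 1.68 and 1.42 and *Des* one of 2.40, 4.15 and 2.91, the largest of the set. At 5000 UMIs *Des* was detected in 22.5% of WT cells, 10.0% of mgR cells and 17.4% of mgR-LOS cells. At 1000 UMIs it was detected in 10.9% (9.94% to 12.0%), 4.43% (3.73% to 5.22%) and 7.31% (6.74% to 7.91%) of SMCs. It was detected in 0%, 0.3205% and 0.195% of macrophages, which do not make it. Their median depths before thinning were 9131.5, 8358 and 6537 UMIs. These macrophages had the 6 gate genes under 150 per 10000. Without that limit the macrophage shares were 0%, 0.314% and 1.43%. Without thinning the shares of SMCs were 29.5%, 15.4% and 20.5%, so the share depends on depth and does not count the cells that make *Des*. It was lowest in mgR at each of these depths.

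**Figure D4:**
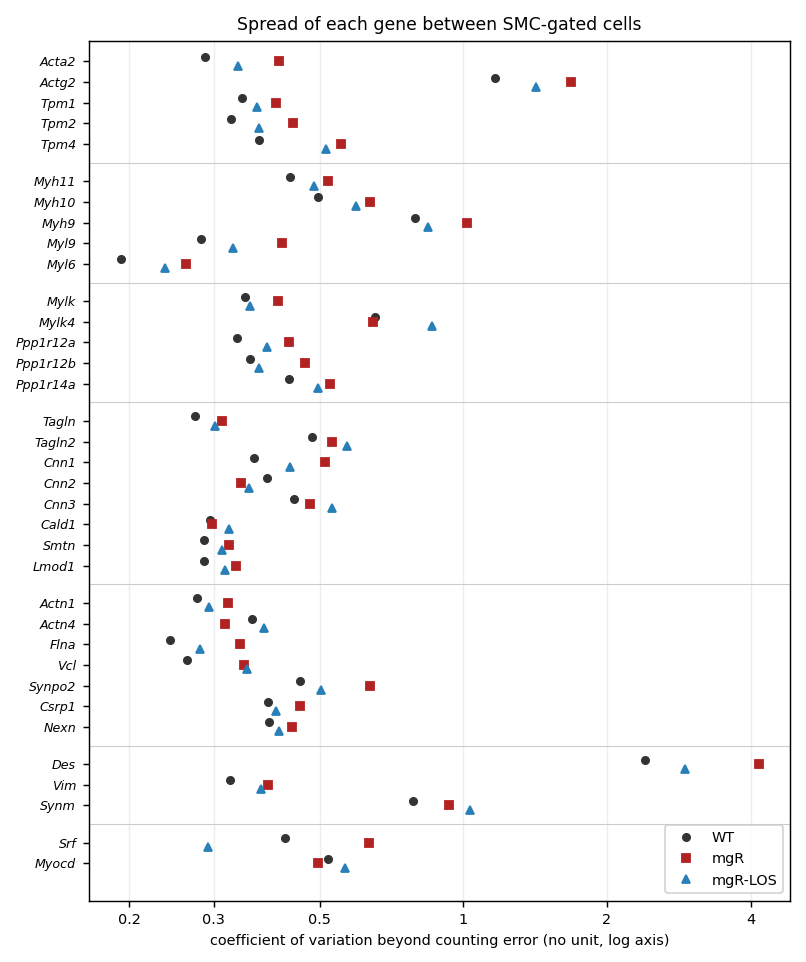
Coefficient of variation between SMCs beyond counting error for each gene, on a log axis, after thinning to 5000 UMIs. Circles are WT, squares mgR and triangles mgR-LOS, and the square lies to the right of the circle in 31 of 35 genes, with *Des* farthest right at 2.40, 4.15 and 2.91.

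Where *Des* and *Actg2* were found overlapped in part with cells rich in *Rgs5*, a pericyte gene. SMCs with at least 5 *Rgs5* UMIs per 10000 numbered 189 in WT (5.31%), 43 in mgR (1.41%) and 212 in mgR-LOS (2.71%). *Des* was at 311, 168 and 262 CPM in them and at 164, 68.1 and 121 CPM in the other SMCs. *Actg2* was at 549.6, 285 and 319 CPM in them and at 327.5, 193 and 252 CPM in the others. The order of the libraries was the same in both kinds of cell for both genes, with mgR the lowest. *Acta2* was lower in *Rgs5*-rich cells of each library, at 19427, 15386 and 17918 CPM against 21993, 20408.5 and 19939 CPM.

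The pairs that moved together most across cells joined *Tpm2* with other abundant genes. Over the 30 genes found in at least 50% of WT cells, the highest Pearson r of log-transformed thinned counts in WT was for *Acta2* and *Tpm2*, at 0.52 in WT, 0.67 in mgR and 0.59 in mgR-LOS (3451, 2967 and 6867 cells). It was followed by *Tpm2* and *Myl6* (0.51, 0.63 and 0.55) and *Tpm2* and *Tagln* (0.47, 0.60 and 0.54). The lowest pairs were *Myh10* and *Myl6* (-0.19, -0.25 and -0.17), *Tpm2* and *Myh10* (-0.14, -0.27 and -0.17) and *Myl6* and *Cald1* (-0.11, -0.02 and -0.10). The median over 435 pairs was 0.06, 0.11 and 0.08. Cells of a library share its chemistry and free RNA, and counts that add up to a fixed total lower r between abundant genes, so these values are descriptions.

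Other cell classes were gated by lists of their own markers, with the 6 gate genes under 150 per 10000. In WT, mgR and mgR-LOS these were 1322, 2426 and 3161 fibroblasts and 75, 183 and 101 endothelial cells. Macrophages numbered 86, 937 and 513 and other leukocytes 49, 689 and 220. Ratios between classes are given without intervals, and those on the small classes are the least precise. The level in SMCs was at least 10 times that in fibroblasts for 17 of 35 genes in WT, 14 in mgR and 14 in mgR-LOS, against 2%, 1.63% and 1.53% of all genes. The gate fixes this for its own 6 genes, and the limit on them in fibroblasts bears on the other genes too. Without that limit mgR-LOS fibroblasts numbered 3670 in place of 3161. They then had *Mylk4* at 34.5 CPM in place of 8.52, *Myocd* at 23.45 in place of 6.62 and *Des* at 38.0 in place of 7.95. Against macrophages it was at least 10 times for 25 of 35 genes in each library, against 10.2%, 9.78% and 9% of all genes. This count also depends on the limit in mgR-LOS, where macrophages numbered 561 without it in place of 513. They then had *Acta2* at 2446 CPM in place of 610, *Mylk4* at 40.2 in place of 10.6 and *Myocd* at 20.1 in place of 5.96. WT macrophages numbered 86 with and without the limit. Outside the gate genes, and with the limit in place, *Myocd* was 31.6, 32.2 and 26.0 times as high in SMCs as in fibroblasts, *Mylk4* 48.3, 37.6 and 38.3 times, *Actg2* 66.5, 32.9 and 29.3 times and *Des* 32.85, 11.1 and 15.7 times. *Mylk* was 36.1 times as high in WT and 15.7 and 15.9 times in mgR and mgR-LOS. *Tpm4* and *Myh9* were lower in SMCs than in fibroblasts, at 0.581, 0.736 and 0.574 times for *Tpm4* and 0.550, 0.482 and 0.464 times for *Myh9*. *Tagln2* (1.68, 1.77 and 1.26 times) and *Vim* (1.36, 1.92 and 1.57 times) were nearly shared. Both were also lower in SMCs than in endothelial cells, at 0.345, 0.460 and 0.3095 times for *Tpm4* and 0.218, 0.270 and 0.208 times for *Myh9*, and *Myh9* was at 0.392, 0.493 and 0.304 times its level in macrophages. Within SMCs the fibroblast genes summed to 81.1, 120.4 and 183.9 CPM, the leukocyte genes to 2.67, 42.1 and 57.0 CPM, the macrophage genes to 4.05, 52.3 and 81.0 CPM and the endothelial genes to 22.7, 5.49 and 14.65 CPM. The first 3 sums were highest in mgR-LOS. *Tpm4* in mgR-LOS SMCs was at 0.982 of WT and *Myh9* at 1.35 times WT (1.30 to 1.405). In SMCs with every list of other lineages under 5 per 10000, mgR over WT was 1.54 for *Tpm4* and 1.65 for *Myh9*. The part of RNA from other cell types in the levels of these genes was not tested.

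**Figure D5:**
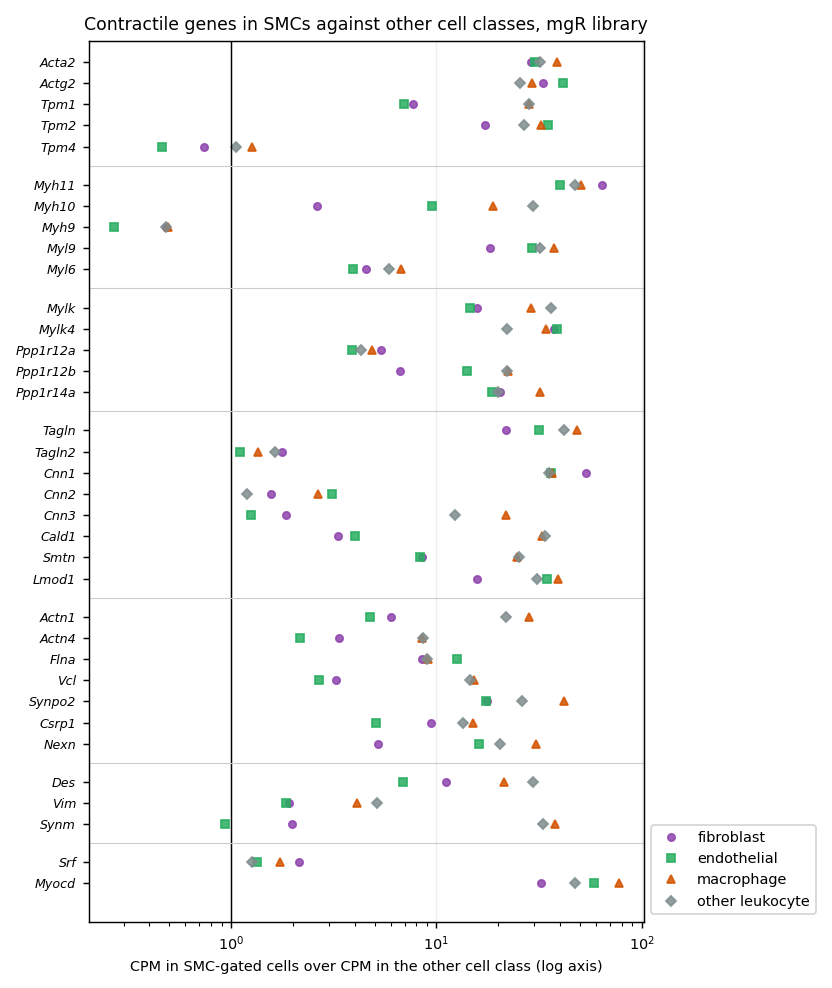
CPM in SMCs divided by CPM in fibroblasts, endothelial cells, macrophages and other leukocytes of the mgR library, on a log axis, for each gene. *Tpm4* and *Myh9* lie left of 1 for fibroblasts and endothelial cells, and *Myh11* lies at 64.3 over fibroblasts.

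In fibroblasts themselves, some of the same genes differed between libraries. *Myh9* was at 138 CPM in WT fibroblasts, 275 in mgR and 221 in mgR-LOS, and mgR over WT was 1.99 (1.90 to 2.09). *Actn4* was at 143, 251 and 203 CPM (1.75, 1.67 to 1.84), and *Tpm4* at 361, 451 and 359 CPM (1.21 to 1.29 times in mgR over WT). *Ppp1r12a*, lower in mgR SMCs, was at 89.7, 91.6 and 110.1 CPM in fibroblasts, where the interval of mgR over WT held 1 (1.02, 0.957 to 1.09). *Mylk4* was at 10.6, 15.2 and 8.52 CPM there, and mgR-LOS over mgR was 0.561 (0.477 to 0.660), near its ratio in SMCs, although *Mylk4* in fibroblasts was less than 3% of its level in SMCs. The values of these last genes depend on the limit on gate genes in fibroblasts. Without it *Ppp1r12a* was at 126, 102 and 177 CPM and *Mylk4* at 31.6, 24.85 and 34.5 CPM, each lowest in mgR. *Myh9*, *Actn4* and *Tpm4* were still highest in mgR, at 279, 274 and 460 CPM. With the limit in place, traces of the gate genes were found in every class, at 843 to 1611 CPM in macrophages, other leukocytes and endothelial cells against 52805, 50147 and 49513.5 CPM in SMCs. In macrophages *Acta2* made up 45.5%, 43.1% and 43.1% of these traces and in SMCs 41.4%, 40.6% and 40.2% of the gate UMIs. The shares of other gate genes differed more, with *Tagln* at 20.1%, 28.5% and 24.05% in macrophages against 29.0%, 33.6% and 29.5% in SMCs. In fibroblasts *Myh11* made up 3.515%, 2.36% and 4.99% of the traces against 7.71%, 6.135% and 8.35% in SMCs. How much of these traces was free SMC RNA was not tested.

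Of 42 other contractile and adhesion genes, 38 had at least 20 CPM in WT or mgR SMCs. In mgR over WT 5 of 38 were higher by 1.5-fold, against 5.01% of all genes tested, and 1 was lower, against 3.59%. The largest ratios were those of *Pln*, phospholamban, the inhibitor of the sarcoplasmic calcium pump, at 16.5, 39.0 and 40.1 CPM (2.36, 2.18 to 2.57), of *Klf4*, a transcription factor that represses SMC genes in cultured cells, at 134, 253 and 280.1 CPM (1.89, 1.83 to 1.94), and of *Fhl2*, at 10.9, 20.04 and 14.0 CPM (1.84, 1.66 to 2.05). Low ratios were those of *Svil*, supervillin, at 301, 221 and 329.6 CPM (0.736, 0.718 to 0.754), and of *Dstn*, destrin, an actin-severing protein, at 4170.4, 3172.5 and 4927 CPM (0.761, 0.756 to 0.766). In mgR-LOS over mgR 1 of 38 was higher, *Dstn* at 1.55 (1.54 to 1.56), against 3.91% of all genes, and none was lower, against 3.6%. In mgR-LOS over WT 2 of 37 were higher, against 4.57%, and none was lower, against 3.03%. These 2 were *Pln* at 2.43 (2.25 to 2.62) and *Klf4* at 2.085 (2.03 to 2.14). *Klf4* is also an immediate early gene, and 7 such genes, *Fos* among them, summed to 10772, 9364 and 10300.2 CPM in the SMCs of WT, mgR and mgR-LOS.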

How the data were processed

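Droplet 3′ single-cell RNA was measured in 3 libraries, 1 per group, each a pool of mice. The deposited values are raw UMI counts for each gene and barcode, which the authors made on GRCm38 (mm10) with CellRanger 5.0.1 for WT and mgR and 6.0.1 for mgR-LOS per the file headers. Gene positions were taken from GENCODE release M21 and promoter windows from RefSeq.

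The filter, after the study's methods, kept barcodes of 600 to 5000 genes whose mitochondrial share was 10% or less. SMCs were gated as described, other classes by lists of markers: a class list (for fibroblasts also *Dcn*) at 10 or more per 10000 UMIs, every other list under 5 and the 6 gate genes under 150, with macrophages split from leukocytes by *C1qa*, *C1qb* and *C1qc*. Doublets were scored with artificial doublets in scikit-learn 1.9.0 and called at 0.8% per 1000 barcodes (4.18%, 10.2% and 10.5% of WT, mgR and mgR-LOS SMCs). They were kept in the main values and removed in an alternative.

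Counts were summed over cells and scaled to CPM. Intervals, computed with scipy 1.17.1, were exact Poisson for levels, exact binomial (Clopper-Pearson) for shares and exact conditional binomial for ratios. No test was made. Spread used 1 seeded draw of 5000 UMIs per cell, shares of cells a draw of 1000. The calculations were tested on simulated data with known ratios and CVs. The members and lists were chosen with earlier results of these data known. All members are named. Of the other 42 contractile and adhesion genes, those with the 3 largest and 3 smallest ratios of mgR over WT are named, except 1 that is not reported here, and *Dstn*, *Pln* and *Klf4* again where they passed in another comparison. Of pairs, the 3 highest and 3 lowest in WT are named. Alternatives covered the limits on genes, mitochondrial UMIs, gate and *Dcn*, a gate on other genes, doublets, *Rgs5*-rich cells, scaling, fold, floor and thinning, and 2 more (a band of the gate genes, and the mean over all draws for spread) were chosen after seeing the data.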

Additional observations from a re-analysis of the deposited data

How the results depend on the processing

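No paired analysis was possible because each group had a single library. The counts of genes past 1.5-fold were recomputed under 18 alternatives and the counts of larger spread under 13. For mgR over WT, a limit of 5 to 4 gave 5 higher and 8 lower genes and a limit of 2-fold gave 0 and 2. For mgR-LOS over mgR these limits gave 7 higher and 7 lower genes and 0 and 0, and for mgR-LOS over WT 4 higher and 5 lower genes and 0 and 0. In the band of 500 to under 700 gate UMIs per 10000, 1 gene was higher in mgR over WT, 1 was lower in mgR-LOS over mgR and 1 was higher in mgR-LOS over WT (*Nexn* at 1.52), and 23 of 35 genes had a larger CV in mgR-LOS than in mgR. The other counts stayed within 1.5 times of those in the report. For spread this range is wide and takes in the lower count for mgR against WT in the band, so it cannot show that a difference in spread held. In the band *Tpm1*, *Tpm2*, *Tpm4*, *Myl9*, *Mylk*, *Tagln*, *Lmod1*, *Flna*, *Vcl*, *Srf* and *Myocd* had no larger CV in mgR-LOS than in WT. Among all SMCs this held only for *Cnn2* and *Srf*. The share of all genes was not computed at the limits of 5 to 4 and 2-fold or in the band. The counts given for them therefore have no background to be read against. Among cells with at most 5% mitochondrial UMIs *Myh11* and *Cnn1* also passed as lower in mgR over WT and *Myh11* and *Myl9* as higher in mgR-LOS over mgR, and *Actn4* no longer passed. Each ratio past 1.5-fold kept its direction in all 14 alternatives that recomputed it. A limit of 5% mitochondrial UMIs, which left 544, 914 and 3090 cells, moved several of them most, with *Synpo2* at 0.373, *Ppp1r12a* at 0.520 and *Actn4* at 1.42 for mgR over WT. Gating on SMC genes outside the set moved no ratio of a gate gene by more than 5%. Without the limit on gate genes in fibroblasts, the median ratio of SMCs over fibroblasts was 6.27, 6.13 and 4.51 in place of 9.32, 7.66 and 7.94. The counts of genes at least 10 times as high in SMCs as in fibroblasts or macrophages were not recomputed without the limit. Depth does not limit the abundant genes, whereas genes under about 1 UMI per 5000, such as *Synm*, *Srf* and *Myh9*, have imprecise CVs. *Des* is also among them, with a mean of 0.83 UMIs in WT and 0.38 in mgR. Its CV over all draws was 2.37, 4.17 and 2.92 in WT, mgR and mgR-LOS. Called doublets and the gate on genes outside the set changed no count past 1.5-fold.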
